A study of Homo sapiens with 66 samples.

Results

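The genes described here are 45 genes of DNA replication and S phase, the part of the cell cycle in which DNA is copied. They were taken from a list of gene symbols matched to the Ensembl identifiers of the deposited count table, and all 45 were found among its 13331 genes. They encode the proteins that license replication origins, switch on the replicative helicase, copy and join the DNA strands, supply nucleotides and rebuild chromatin, with 4 regulators of S phase entry. Their RNA was measured in KBM7, a near-haploid human line from chronic myeloid leukaemia, by QuantSeq, which sequences the 3′ ends of polyadenylated RNA. In 9 engineered lines 1 protein carried a dTAG degron: the kinase CDK9 (CDK9-dTAG), or 1 of 8 Mediator subunits, namely MED14, MED1, MED6, MED10, MED12, MED31, MED28 and MED26 (MED1-dTAG and so on). Each tagged line received DMSO or 500 nM dTAG7, a compound that brings a dTAG fusion protein to an E3 ubiquitin ligase for degradation. Wild-type KBM7 cells, without a tag, received DMSO, 500 nM dTAG7, 100 nM dBET6 (a degrader of the BET bromodomain proteins) or 250 nM THAL-SNS-032 (a degrader of CDK9, named dCDK9 in the labels). All treatments lasted 6 h, and each of the 22 groups had 3 libraries, lettered A, B and C. Replicates were wells of a plate treated in triplicate, and a p-value here therefore speaks of the spread among wells, which may be technical. Whether a tagged line is 1 clone is not given in the sources used here.

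Origins of replication are licensed when ORC, CDC6 and CDT1 load the MCM ring, the core of the replicative helicase, onto DNA in the G1 phase. CDC45 and the GINS complex then activate the ring, after which primase and the DNA polymerases copy both strands behind the sliding clamp PCNA. Many genes of this machinery are induced together at the G1 to S boundary by E2F transcription factors, which are released when cyclin E and CDK2 inactivate RB. Mediator is the large complex that connects transcription factors with RNA polymerase II: MED14 is its scaffold, MED6, MED10, MED28 and MED31 lie in its head and middle, MED1 and MED26 are more peripheral, and MED12 belongs to its separable kinase module. CDK9 is the kinase that releases paused polymerase into elongation, and BET proteins help to recruit it.

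Promoter sequences of the members were searched for motifs that their selection did not use. Promoters of RefSeq (GRCh38.p14, 250 bases before to 50 after the start) were found for 38 of the 45 members, and not for MCM4, MCM5, GINS4, POLD3, RPA2, RPA3 and CCNE2. One of 4 forms of the E2F site (TTTCCCGC, TTTGGCGC, TTTCGCGC or TTTGCCGC, searched on both strands) lay in 18 of the 38, or 47.4%, against 1164 of all 35116 promoters, or 3.31%. A CCAAT box lay in 23 of 38, or 60.5%, against 34.6% of all promoters, and the E-box CACGTG in 5 of 38, or 13.2%, against 7.26%. For a member 1 promoter was taken, whereas the 35116 were not limited to 1 entry a gene or to genes of the count table. The forms of the E2F site can overlap each other, as in MCM6. Below stand the 250 upstream bases, 5′ to 3′ on the gene's strand, of a licensing gene, a nucleotide enzyme, the repair gene that fell most often after Mediator degradation and the activator itself. Capitals mark forms of the E2F site and CCAAT on either strand (ATTGG on the other one).
MCM6 (chr2:135876444-135876693, minus strand): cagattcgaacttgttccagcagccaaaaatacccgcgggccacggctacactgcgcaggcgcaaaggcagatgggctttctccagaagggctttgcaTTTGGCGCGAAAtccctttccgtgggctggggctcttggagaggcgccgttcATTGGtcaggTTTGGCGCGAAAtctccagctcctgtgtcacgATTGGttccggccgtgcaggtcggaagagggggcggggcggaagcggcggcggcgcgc
TYMS (chr18:657403-657652, plus strand): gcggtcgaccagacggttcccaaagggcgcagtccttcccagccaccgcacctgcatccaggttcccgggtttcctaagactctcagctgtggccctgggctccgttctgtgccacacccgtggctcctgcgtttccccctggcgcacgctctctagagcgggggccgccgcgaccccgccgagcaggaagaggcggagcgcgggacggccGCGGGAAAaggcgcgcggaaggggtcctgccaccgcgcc
UNG (chr12:109097347-109097596, plus strand): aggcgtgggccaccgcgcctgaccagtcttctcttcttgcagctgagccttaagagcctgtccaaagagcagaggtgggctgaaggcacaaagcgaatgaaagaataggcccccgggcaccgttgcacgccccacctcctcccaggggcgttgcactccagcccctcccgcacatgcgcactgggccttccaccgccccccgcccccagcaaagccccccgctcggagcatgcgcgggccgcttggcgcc
E2F1 (chr20:33686386-33686635, minus strand): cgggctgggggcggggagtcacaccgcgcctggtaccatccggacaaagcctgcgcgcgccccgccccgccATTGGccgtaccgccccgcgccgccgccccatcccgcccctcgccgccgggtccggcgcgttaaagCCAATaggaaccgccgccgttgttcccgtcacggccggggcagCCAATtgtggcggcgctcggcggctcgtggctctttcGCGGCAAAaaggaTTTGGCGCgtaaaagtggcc
MCM6 held 4 matches to the E2F forms, which overlap in pairs and make its 2 long capital runs, E2F1 held 2, TYMS held 1 and the UNG window held none. A form was present in members that fell after MED14 degradation, such as MCM3 and GINS1, and in members not called there, such as CDC6, POLE and DTL.

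Libraries held 439261 to 4337368 endogenous counts and 10950 to 72684 counts of ERCC and SIRV spike-in RNA, which was added in equal amount to each lysate. Spike-in totals served as library sizes, so that a fold change on this scale follows RNA per lysate, and fewer cells and less RNA per cell cannot be told apart. Values in CPM below are spike-in-scaled, with the spike-in total in the place of the library size, and because QuantSeq takes 1 tag a transcript they do not grow with transcript length. TMM scaling, which sets the bulk of genes equal between libraries, gives the change relative to other RNAs and stands beside each count. A gene was called when its adjusted p (Benjamini-Hochberg over 12515 genes, or 12892 under TMM) was under 0.05 in edgeR's quasi-likelihood test. All 45 members passed the filter on low counts. The 13 genes looked at as myeloid and progenitor markers, which include BCR and ABL1, were all in the table. Their summed level ran from 1371 to 2363 CPM over the DMSO libraries, against 9.77 to 75.1 CPM for 5 lymphoid markers. The sums cover unlike numbers of genes and do not give the level of any single marker. Of 3 mature myeloid markers, CD14 and S100A8 are not in the table used here, and ITGAM lay at 7.79 CPM or below in every DMSO library. A degron removes protein, so the RNA of a tagged gene does not check the labels. Library A of MED6 dTAG7 and library B of MED12 DMSO stood apart from their replicates, with a chi-square per degree of freedom over genes of 14.75 to 18.45 and of 8.46 to 8.63 against them, where their 2 replicates differed from each other by 2.15 and 1.80. Library C of MED12 dTAG7 (4.90 and 5.97) and libraries A of MED26 DMSO (4.34 and 4.19), MED31 DMSO (4.38 and 3.93) and MED31 dTAG7 (4.50 and 3.73) stood apart less. With dBET6 libraries B and C differed by 5.26, and from library A by 2.94 and 2.69. With THAL-SNS-032 B and C differed by 4.625, and from library A by 2.97 and 1.75.

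In untreated cells the members spanned a wide range of levels. Averaged over the 10 DMSO groups, MCM4, a subunit of the MCM ring, stood at 789 CPM and RRM1, the large subunit of ribonucleotide reductase, at 630 CPM. The lowest were CCNE2, one of the cyclin E genes, at 23.1 CPM and GINS3, a GINS subunit, at 30.8 CPM. The DMSO level differed among the 10 lines for 21 members against 40.7% of all genes, and for 13 under TMM against 26.8%. The lowest p belonged to POLD3, an accessory subunit of DNA polymerase delta, followed by MCM4 and the initiation factor MCM10 (adjusted p 1.16e-12, 1.51e-09 and 2.63e-06, edgeR). POLD3 lay at 50.5, 60.8 and 54.3 CPM in the MED14 line under DMSO, and its other 27 DMSO libraries lay between 97.9 and 176 CPM. No DMSO library of another line reached down to the MED14 line for this gene. MCM4 ran from a mean of 636 CPM in the MED12 line to 1008 CPM in the MED28 line, which had the highest DMSO mean for 42 of the 45 members. The MED28 line also had the most endogenous RNA per spike-in of all DMSO libraries, at log2 ratios of 7.31, 7.17 and 7.17. Such an offset raises all genes on this scale, and the same count over all genes was not made.

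Degradation of single Mediator subunits moved replication genes to very different extents. MED14 loss lowered 35 of 45, where 63.3% of all genes fell, MED6 loss 9, where 18.4% fell, and MED10 loss 8, where 19.0% fell, so the MED6 and MED10 counts lay near the share of all genes. MED1 loss and dTAG7 in wild-type cells gave no call. CCNE2 was the exception in direction among the members: it rose in 5 of the 8 Mediator lines on the spike-in scale. It was the only member called higher in any of them (2.22% of members), against 5.27% of all genes called higher in at least 1 line. UNG, which removes uracil from DNA, was called lower in 6 of the 8 lines, more often than any other member. Over the 8 lines 35 members (77.8%) were called lower at least once, against 64.5% of all genes, and 9 (20.0%) were called in none, against 31.1%. These 35 are the members called lower after MED14 loss, where the median was -0.58 for members and -0.69 for all genes. Under TMM 8 members (17.8%) were called lower and 12 (26.7%) higher in at least 1 line, against 20.4% and 18.3% of all genes.

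**Figure D1:**
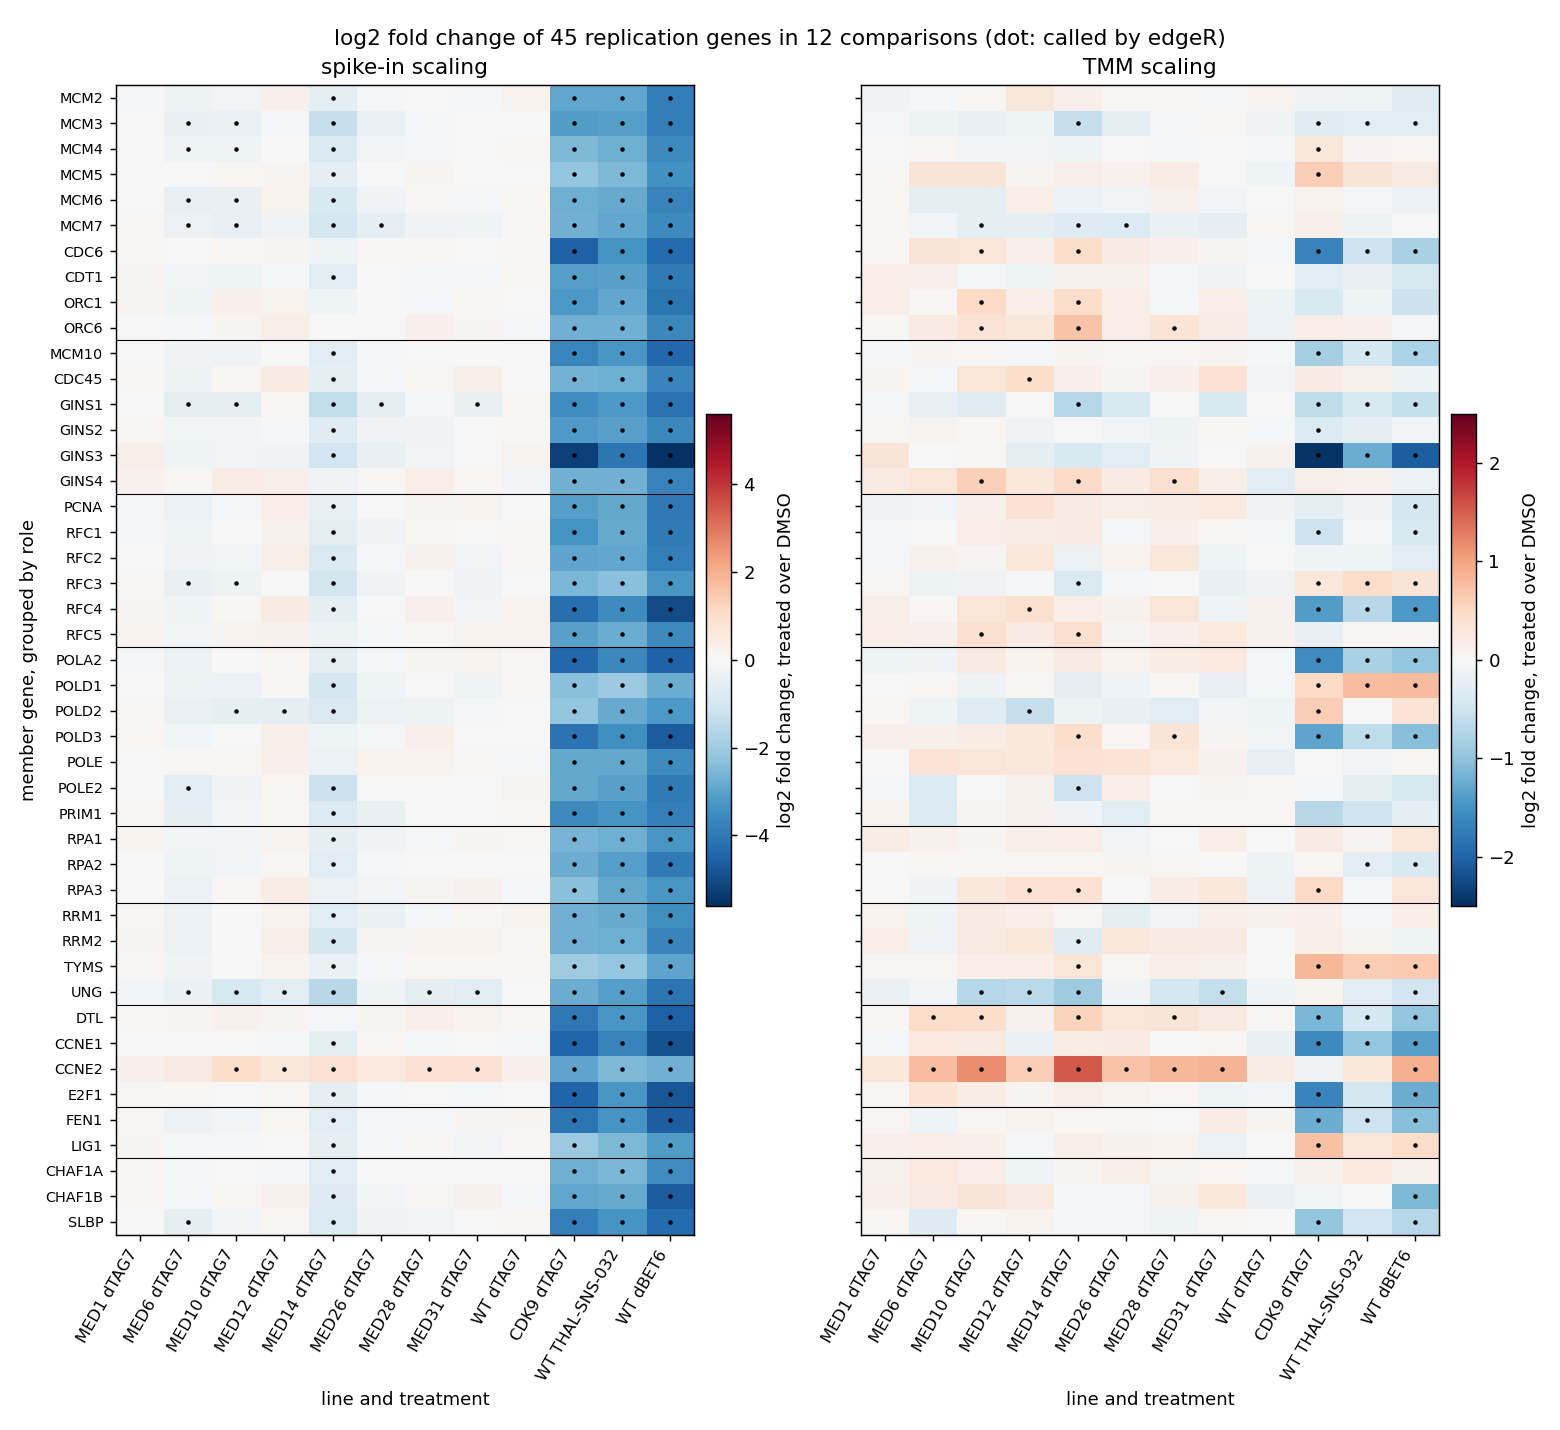
Heat maps of the log2 fold change of each of the 45 members (rows, grouped by role) in the 12 treated against DMSO comparisons (columns), with spike-in scaling on the left and TMM scaling on the right; the colour scales differ, and a dot marks a call by edgeR. The right 3 columns are blue for all members on the left panel and mixed on the right, and the CCNE2 row is red across the 8 Mediator lines in both.

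After MED14 degradation, 35 members were called lower and 1 higher on the spike-in scale, against 63.3% lower and 1.70% higher of all genes. The median member fell by 0.58 on the log2 scale and the median of all genes fell by 0.69, while endogenous RNA per spike-in stood at 63.2% of DMSO. Under TMM 7 members were lower and 10 higher, against 16.6% and 13.4% of all genes, with a median of 0.10 beside 0.01 over all genes. The members lower under both scalings were MCM3, MCM7, GINS1, RFC3, POLE2, RRM2 and UNG. The 36 called members had treated and DMSO libraries that did not overlap, as did 96.3% of all called genes in this line. The calls lost when a library was left out were PCNA (without DMSO B or dTAG7 C) and CCNE1 (without dTAG7 C).

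Among the 10 licensing genes, 7 fell with MED14 loss on the spike-in scale and 3 did not pass, where 63.3% of all genes fell. Under TMM 2 of them were lower and 3 higher. MCM3 lay at 299, 324 and 326 CPM in DMSO and at 132, 142 and 121 CPM after dTAG7, a log2 fold change of -1.27 ± 0.13 (SE). Every treated library was below every DMSO library for MCM3, as it was for MCM7, which went from 441, 443 and 422 CPM to 212, 226 and 215 CPM. MCM2 lay at 355, 405 and 398 CPM and then at 247, 302 and 238 CPM (-0.56 ± 0.17), so the 6 MCM subunits, which form 1 ring, fell by between 0.55 (MCM5) and 1.27 (MCM3). CDT1, the loading factor that is destroyed in S phase, went from 192, 197 and 179 CPM to 119, 135 and 126 CPM (-0.58 ± 0.12). CDC6, the ATPase that works with CDT1, stood at 104, 102 and 96.6 CPM and then at 86.5, 89.8 and 82.0 CPM (-0.23, not called). CDC6 libraries did not overlap either, but the size was small, and under TMM it was called higher (0.45). The origin recognition subunits ORC1 and ORC6 were likewise not called (-0.23 and 0.03) and were called higher under TMM (0.46 and 0.72). ORC6 overlapped fully, at 91.0, 113 and 80.7 CPM in DMSO and 93.1, 99.6 and 99.7 CPM after dTAG7.

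Of the 6 helicase activation genes, 5 fell with MED14 loss on the spike-in scale, where 63.3% of all genes fell. Under TMM 1 of them was lower and 1 higher. GINS1 lay at 102, 101 and 102 CPM in DMSO and at 35.9, 40.0 and 41.0 CPM after dTAG7 (-1.39 ± 0.13, adjusted p 4.92e-14, edgeR). The 4 GINS subunits form 1 complex, and their RNAs spread from -1.39 (GINS1) over -1.06 (GINS3) and -0.68 (GINS2) to -0.20 (GINS4, not called). Under TMM GINS1 was lower (-0.71) and GINS4 higher (0.49). MCM10 and CDC45 fell by 0.61 and 0.56, less than the median of all genes (-0.69). Both had the opposite sign under TMM, where neither was called.

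Of the clamp and its loader, PCNA and 4 of the 5 RFC subunits fell, led by RFC3 (-1.05 ± 0.10), while RFC5 was not called (-0.28). PCNA lay at 242, 266 and 252 CPM in DMSO and at 184, 189 and 175 CPM after dTAG7 (-0.47 ± 0.17). Among 7 polymerase and primase genes 5 fell, led by POLE2, the second subunit of polymerase epsilon (-1.20 ± 0.18), whereas the catalytic POLE (-0.33) and POLD3 (-0.25) were not called. The single-strand binding subunits RPA1 and RPA2 fell by 0.53 and 0.65 on the spike-in scale, and RPA3 did not pass (-0.31). FEN1, which cuts flaps of Okazaki fragments, and the ligase LIG1 fell by 0.64 and 0.54. Among all genes 63.3% fell, with a median of -0.69. Under TMM PCNA, RFC1, RFC4, POLA2, RPA1, RPA2, FEN1 and LIG1 had the opposite sign, and none of them was called. RFC5 (0.41), POLD3 (0.44) and RPA3 (0.38) were called higher under TMM, and RFC3 and POLE2 lower.

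All 4 genes of nucleotide supply and uracil repair fell on the spike-in scale, where 63.3% of all genes fell. Under TMM 2 of them were lower and 1 higher. RRM2, the limiting small subunit of ribonucleotide reductase, went from 141, 131 and 131 CPM to 65.0, 70.1 and 69.3 CPM (-0.98 ± 0.14) and stayed lower under TMM (-0.30). TYMS, which makes thymidylate, fell least among the called members (-0.39 ± 0.11) and was called higher under TMM (0.30). UNG showed the largest fall of all members, from 228, 244 and 244 CPM to 82.2, 83.0 and 77.0 CPM (-1.57 ± 0.15, adjusted p 6.05e-14, edgeR). The chromatin assembly genes CHAF1A and CHAF1B fell by 0.61 and 0.71, near the median of all genes (-0.69), and neither was called under TMM. SLBP, which binds the stem-loop of histone mRNA, went from 58.4, 77.1 and 73.6 CPM to 44.5, 33.8 and 44.1 CPM (-0.75 ± 0.20).

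On the spike-in scale, where the median of all genes was -0.69, the 4 regulators did not move together. Under TMM all 4 changes were positive, from 0.14 (E2F1) to 1.52 (CCNE2), with 2 called higher and 0 lower. E2F1, a transcriptional activator of S phase genes, went from 61.3, 50.7 and 45.7 CPM to 35.9, 41.8 and 32.0 CPM (-0.54 ± 0.14). CCNE1, the first cyclin E gene, went from 37.6, 39.7 and 36.1 CPM to 29.6, 32.0 and 20.2 CPM (-0.50 ± 0.16). DTL, the adaptor that targets CDT1 for destruction, was not called (-0.12) and was called higher under TMM (0.56). CCNE2 rose from 23.3, 20.5 and 19.7 CPM to 37.9, 38.7 and 37.0 CPM (0.84 ± 0.19, adjusted p 0.000117, edgeR).

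**Figure D2:**
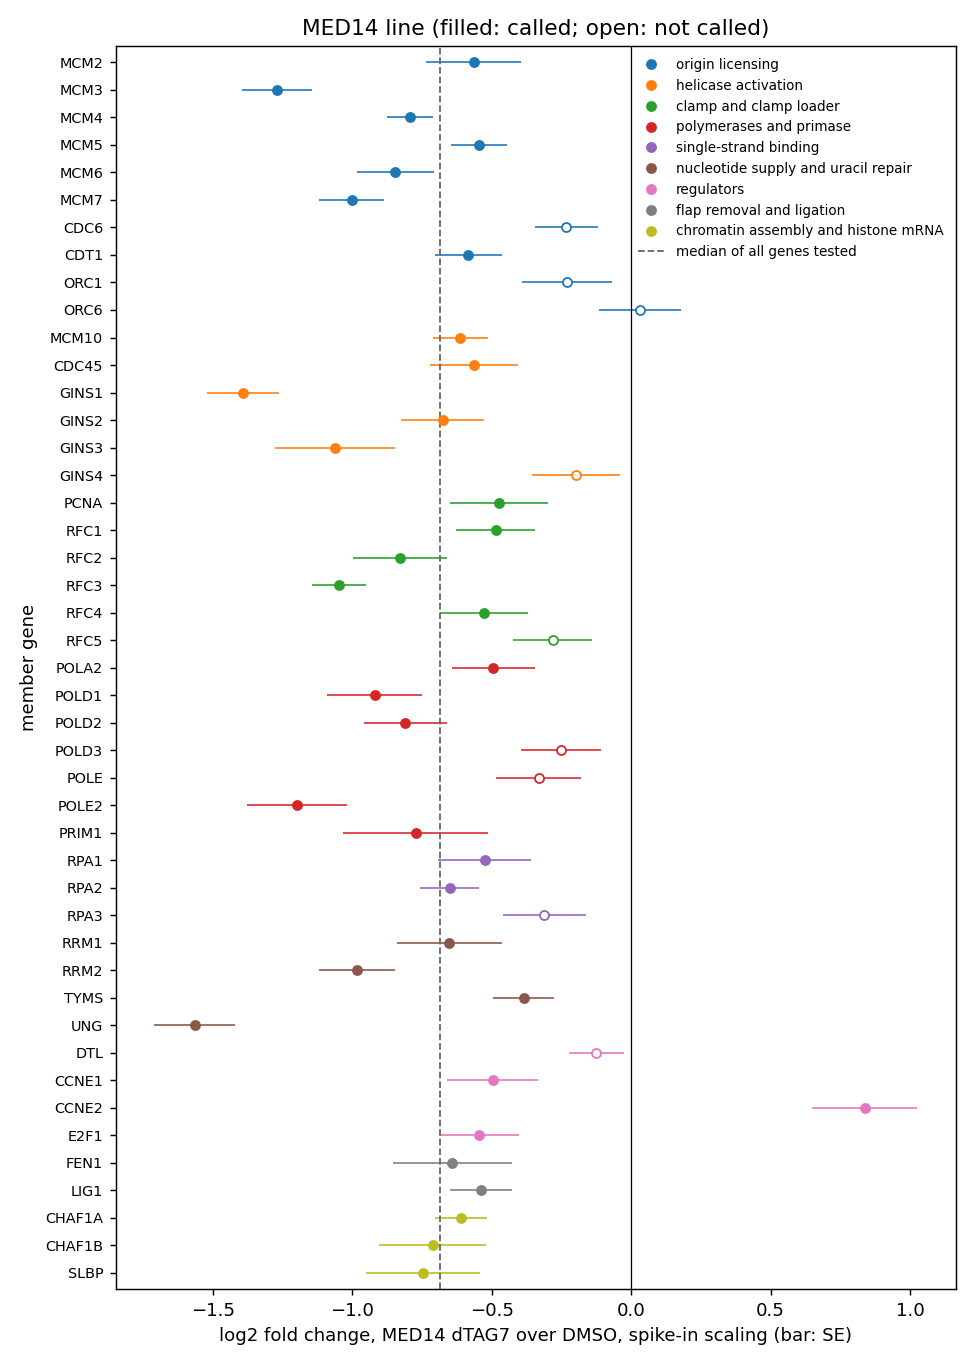
Log2 fold change with its SE of each member in the MED14 line, dTAG7 over DMSO on the spike-in scale, coloured by role; filled points were called by edgeR and the dashed line is the median of all genes tested. CCNE2 lies alone on the right at 0.84 and UNG farthest left at -1.57, with the median of all genes at -0.69.

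The mean of CCNE2 was higher after dTAG7 in all 8 Mediator lines, and on the spike-in scale edgeR called 5 of these differences. In the MED10 line it went from 24.4, 28.4 and 24.3 CPM to 44.9, 55.7 and 50.5 CPM (0.96 ± 0.19). The MED31 line gave 25.8, 16.6 and 26.6 CPM under DMSO and 40.1, 40.6 and 40.1 CPM under dTAG7 (0.82 ± 0.19). For MED28 the values were 30.6, 17.8 and 26.6 CPM and then 51.7, 38.1 and 40.9 CPM (0.79 ± 0.19). In the MED12 line it went from 30.5, 24.8 and 36.0 CPM to 41.1, 53.7 and 47.4 CPM (0.65 ± 0.18). In these 4 lines and the MED14 line no treated library was as low as any DMSO library of the line. The same held in the MED26 and MED1 lines, where CCNE2 was not called, and only the MED6 line overlapped. CCNE2 was not called in the MED6, MED26 and MED1 lines (0.50, 0.57 and 0.28), nor in wild-type cells with dTAG7 (0.28, from 19.5, 25.0 and 18.7 CPM to 28.5, 21.6 and 25.8 CPM). Under TMM it was called in 7 lines, all but MED1, with values from 0.62 in the MED12 line to 1.52 in the MED14 line. Leaving out 1 library ended the call in the MED12 line (DMSO B, dTAG7 B or dTAG7 C), the MED28 line (DMSO B or dTAG7 A) and the MED31 line (DMSO B), and in neither the MED10 nor the MED14 line. The effect in a tagged line was not tested against that in wild-type cells. CCNE2, on the minus strand of chromosome 8 (94879770 to 94896678, hg38), overlaps NDUFAF6, INTS8 and AC087752.1, and whether the counting used strand is not given in the sources used here. NDUFAF6 and INTS8 changed by -1.03 and -0.96 in the MED14 line, and neither was called higher in any of the 8 lines.

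The mean of UNG was lower after dTAG7 in all 8 Mediator lines but not in wild-type cells, where it lay at 315, 339 and 323 CPM under DMSO and 331, 313 and 334 CPM under dTAG7. In the MED10 line it went from 344, 326 and 282 CPM to 164, 165 and 173 CPM (-0.92 ± 0.14). In the MED31 line it went from 268, 313 and 274 CPM to 156, 193 and 202 CPM (-0.63 ± 0.14). For MED12 the levels were 230, 280 and 200 CPM and then 145, 149 and 167 CPM (-0.62 ± 0.14). Groups did not overlap in these 3 lines, in the MED14 line or in the MED28 line, where UNG changed by -0.49 ± 0.14. They overlapped in the MED6 line (-0.37 ± 0.14), at 295, 244 and 284 CPM and then 270, 148 and 215 CPM. UNG was not called in the MED26 and MED1 lines (-0.24 and -0.15). Under TMM the fall was called in the MED10, MED12, MED14 and MED31 lines. Leaving out 1 library ended the call in the MED6 line (DMSO A or C, dTAG7 B or C), the MED28 line (DMSO A or B, dTAG7 A or C) and the MED31 line (dTAG7 A), and not in the MED10, MED12 or MED14 line, although the MED12 call was lost in a fit on that line's own libraries.

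**Figure D3:**
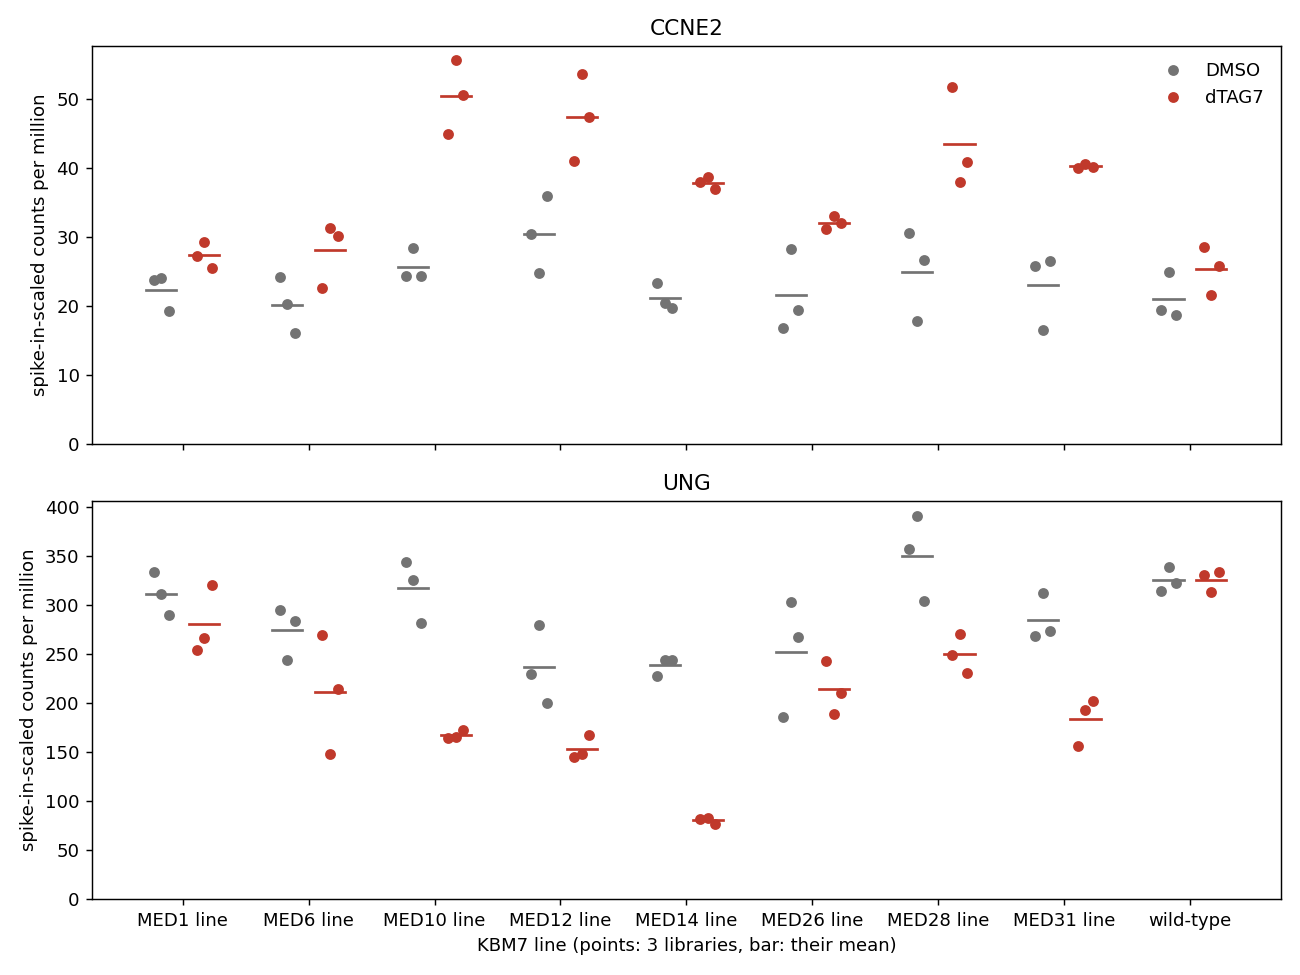
Level of CCNE2 (top) and UNG (bottom) in spike-in-scaled CPM in each library of the 8 Mediator lines and wild-type cells, DMSO in grey and dTAG7 in red; points are 3 libraries a group and the bar is their mean. Treated CCNE2 libraries lie above all DMSO libraries of the same line in every Mediator line but MED6, and UNG libraries of the MED14 line reach the lowest level at 77.0 to 83.0 CPM.

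MED10 loss lowered 8 members and raised CCNE2, against 19.0% lower and 2.71% higher of all genes, with a median member of -0.07 beside -0.19. Besides UNG these were MCM3, MCM4, MCM6, MCM7, GINS1, RFC3 and POLD2, between -0.26 (MCM4) and -0.51. MCM7, which went from 501, 541 and 449 CPM to 360, 363 and 363 CPM (-0.46 ± 0.12), and GINS1, from 125, 119 and 106 CPM to 76.7, 76.7 and 90.2 CPM (-0.51 ± 0.12), stayed called whichever library was left out. The count of lower members fell to 4 without DMSO A or without DMSO B. Under TMM 2 members were lower and 7 higher, against 10.0% and 8.06% of all genes. Those higher under TMM were CCNE2, GINS4 (0.59), ORC1, DTL, RFC5, ORC6 and CDC6. GINS4 libraries lay at 61.2, 89.0 and 70.8 CPM in DMSO and 89.4, 111 and 93.3 CPM after dTAG7, which was not called on the spike-in scale.

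MED6 loss lowered 9 members and raised none, against 18.4% and 0.775% of all genes, with a median of -0.24 beside -0.27. These were MCM3, MCM4, MCM6, MCM7, GINS1, RFC3, POLE2, UNG and SLBP, between -0.25 and -0.62. The count rests on library A of dTAG7, which stood apart from its replicates: without it 3 members were called lower, without DMSO A 4 were, and 0 were when edgeR was run with nothing but that line's 6 libraries. In that library MCM2 lay at 172 CPM, against 363 and 385 CPM in the other treated libraries and 355, 366 and 386 CPM in DMSO. SLBP was at 37.1 CPM there against 76.4 and 81.4 CPM, and RRM2 at 82.7 CPM against 135 and 131 CPM. POLE2 was at 21.8, 25.9 and 35.2 CPM against 41.8, 42.5 and 41.1 CPM in DMSO (-0.62 ± 0.16, lost without dTAG7 A). GINS1 and RFC3 stayed called whichever library was left out (-0.50 ± 0.12 and -0.42 ± 0.09). Under TMM edgeR called 0 members lower (3 at an unadjusted p under 0.05) and 2 higher, against 3.66% and 2.89% of all genes: DTL, at 205, 192 and 195 CPM in DMSO and 243, 203 and 220 CPM after dTAG7 (0.47 under TMM), and CCNE2 (0.78 under TMM).

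MED12 loss lowered 2 members, UNG and POLD2, and raised CCNE2, against 3.40% lower and 1.57% higher of all genes. All 3 calls were lost when edgeR was run with nothing but that line's 6 libraries (adjusted p 0.140 for UNG, 0.196 for POLD2 and 0.239 for CCNE2). The median member was 0.13 beside 0.06. POLD2, a polymerase delta subunit, went from 116, 122 and 141 CPM to 93.2, 89.4 and 79.9 CPM (-0.53 ± 0.15), and the call was lost without DMSO C, dTAG7 B or dTAG7 C. Library B of MED12 DMSO lay low for several members: MCM2 was at 213 CPM against 350 and 346 CPM, PCNA at 156 CPM against 251 and 227 CPM, and SLBP at 44.6 CPM against 79.8 and 83.1 CPM. Without that library 2 members were called lower and 0 higher. Leaving out dTAG7 B or C also gave 0 higher, leaving out DMSO A gave 4 higher, and leaving out DMSO C gave 2 higher and 1 lower. Under TMM 2 members were lower and 4 higher, against 5.70% and 3.06% of all genes. The 4 were CCNE2, CDC45 (0.44), RFC4 and RPA3. CDC45 lay at 58.5, 33.5 and 60.8 CPM in DMSO and at 60.2, 65.2 and 80.4 CPM after dTAG7, so its groups overlapped.

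The remaining Mediator lines gave few calls. MED26 loss lowered MCM7 (-0.48 ± 0.12) and GINS1 (-0.51 ± 0.12) and raised none, against 2.88% and 0.264% of all genes, with a median of -0.08 beside -0.14. MCM7 went from 582, 479 and 503 CPM to 342, 425 and 351 CPM in that line, and 0 members were called lower without dTAG7 A and 1 without DMSO A, DMSO B or dTAG7 C. Under TMM 1 member, MCM7, was lower and CCNE2 was higher, against 1.40% and 0.970% of all genes. MED28 loss lowered UNG and raised CCNE2, against 4.07% and 0.775% of all genes, with a median of 0.01 beside -0.04. Under TMM edgeR called 0 lower there (2 at an unadjusted p under 0.05) and 5 higher (CCNE2, GINS4, ORC6, POLD3 and DTL), against 4.34% and 2.09% of all genes. MED31 loss lowered UNG and GINS1 and raised CCNE2, against 2.61% and 0.495% of all genes, with a median of 0.01 beside -0.04. GINS1 went from 115, 113 and 97.1 CPM to 77.3, 80.8 and 86.7 CPM (-0.41 ± 0.12), a call that leaving out any of 5 libraries ended. Under TMM UNG was lower and CCNE2 higher in the MED31 line, against 3.02% and 1.46% of all genes.

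In the MED1 line and in wild-type cells given dTAG7, 0 members were called in either direction by edgeR, as was 0% of all genes on the spike-in scale, and DESeq2 also called 0 members. At an unadjusted p under 0.05, 0 members passed in either comparison. The median member was 0.05 beside 0.01 in the MED1 line and 0.06 beside 0.09 in wild-type cells. Under TMM 0 members were called in either, against 0.00776% of genes lower in the MED1 line and 0% otherwise, and GINS4 alone had an unadjusted p under 0.05 (-0.27 in wild-type cells). Member values on the spike-in scale lay between -0.15 and 0.33 in the MED1 line and between -0.17 and 0.28 in wild-type cells.

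The size of the dTAG7 effect differed among the 8 Mediator lines for 25 members, against 46.2% of all genes, and for 6 under TMM, against 12.4%. The lowest p on the spike-in scale belonged to RFC3, GINS1 and MCM3 (adjusted p 1.20e-08, 1.31e-08 and 1.83e-07, edgeR). The 6 under TMM were MCM3, GINS1, ORC6, RRM2, UNG and CCNE2. The effect of MED14 loss lay below that of MED12 loss for 39 members and above it for 0, against 57.4% and 0.535% of all genes. The lowest p belonged to GINS1 (a difference of -1.45 ± 0.18), RFC3 (-1.06 ± 0.13) and MCM3 (-1.22 ± 0.18). GINS1 in the MED12 line was at 108, 106 and 103 CPM in DMSO and 104, 128 and 98.4 CPM after dTAG7. Under TMM 3 members differed downward and 2 upward, against 4.75% and 2.89% of all genes.

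CDK9 degradation and the compounds dBET6 and THAL-SNS-032 lowered all 45 members on the spike-in scale. Nearly all other genes fell too: 95.3% of all genes were called lower in the CDK9 line, 97.1% with dBET6 and 96.2% with THAL-SNS-032, and 0.224%, 0.423% and 0.256% higher. The median member changed by -2.92 in the CDK9 line, -3.84 with dBET6 and -2.91 with THAL-SNS-032, beside -2.93, -3.67 and -2.86 over all genes. Endogenous RNA per spike-in stood at 19.2%, 11.3% and 17.6% of DMSO. The comparisons of dBET6, THAL-SNS-032 and dTAG7 in wild-type cells share their 3 DMSO libraries, so their values are only set side by side. Under TMM 15 members were lower and 8 higher in the CDK9 line (27.0% and 21.1% of all genes), 18 and 5 with dBET6 (23.2% and 18.2%), and 12 and 3 with THAL-SNS-032 (16.0% and 14.1%). The members' share of endogenous counts fell from 0.670 to 0.677% in CDK9 DMSO libraries to 0.486 to 0.511% after dTAG7. In wild-type cells it was 0.646 to 0.661% in DMSO, 0.643 to 0.647% with dTAG7, 0.501 to 0.532% with THAL-SNS-032 and 0.427 to 0.471% with dBET6. It lay at 0.661 to 0.676% and 0.666 to 0.684% in the MED14 line, and the groups overlapped in the MED26 line too. In the other 6 Mediator lines every treated library lay above every DMSO library. Shares of other gene sets were not computed, and a share also depends on the most abundant RNAs of a library. The share went from 0.673 to 0.687% to 0.715 to 0.729% for MED10, from 0.684 to 0.689% to 0.723 to 0.729% for MED28, and from 0.588 to 0.610% to 0.633 to 0.644% for MED12. Differences were smaller for MED31 (0.565 to 0.572% and 0.581 to 0.599%), MED6 (0.647 to 0.657% and 0.664 to 0.678%) and MED1 (0.665 to 0.673% and 0.676 to 0.692%).

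**Figure D4:**
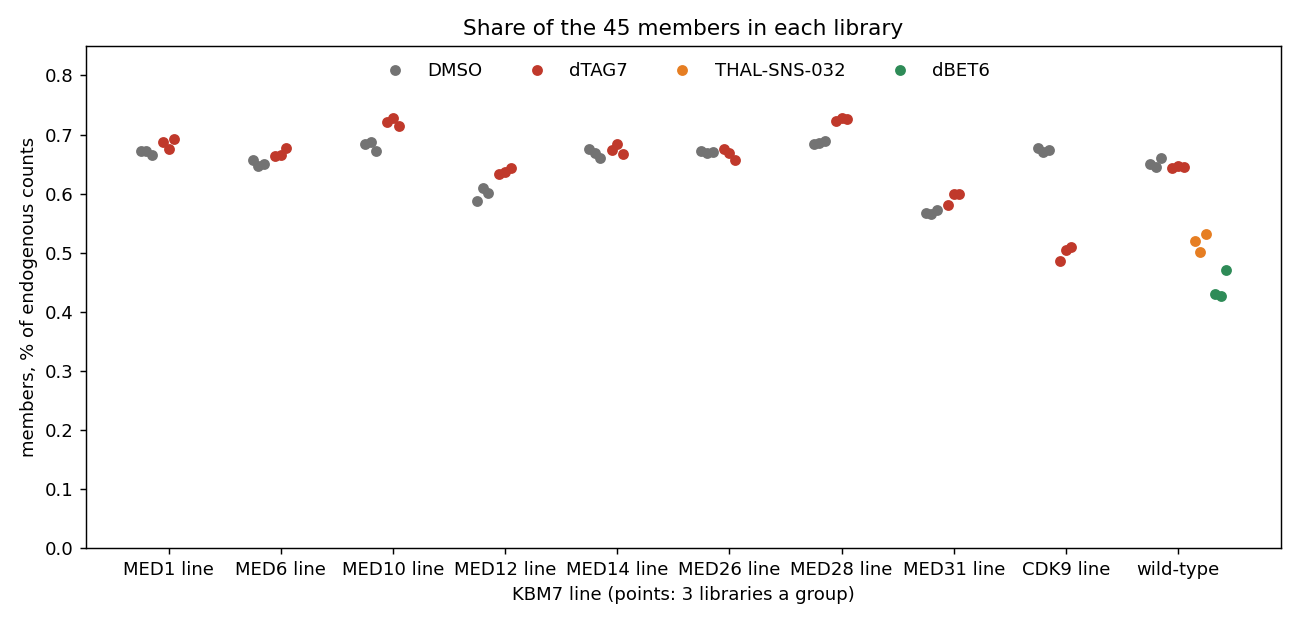
Share of all endogenous counts taken by the 45 members, in percent, in each of the 66 libraries by line and treatment. The treated CDK9 libraries and the THAL-SNS-032 and dBET6 libraries lie between 0.427 and 0.532%, below their DMSO libraries, the MED14 and MED26 libraries overlap, and treated libraries of the other 6 Mediator lines lie above their DMSO libraries.

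GINS3 showed the largest fall in each of these 3 comparisons. In the CDK9 line it went from 20.1, 32.0 and 32.4 CPM to 0.826, 1.06 and 0.332 CPM (-5.22 ± 0.35), with 9 counts in all treated libraries together. It changed by -5.54 with dBET6, where 8 counts remained, and by -4.03 with THAL-SNS-032. The next largest falls differed between the comparisons: CDC6 in the CDK9 line, RFC4 with dBET6 and CCNE1 with THAL-SNS-032. CDC6 went from 108, 113 and 129 CPM to 5.09, 4.22 and 5.64 CPM in the CDK9 line (-4.52 ± 0.16). It changed by -4.37 with dBET6 and by -3.33 with THAL-SNS-032, from 124, 120 and 118 CPM to 4.46, 4.90 and 8.52 CPM and to 11.7, 9.80 and 15.5 CPM. E2F1 went from 72.2, 58.3 and 68.0 CPM to 2.89, 2.11 and 3.32 CPM in the CDK9 line (-4.50 ± 0.20), and changed by -4.81 and -3.25 with dBET6 and THAL-SNS-032. CCNE1 changed by -4.42, -4.89 and -3.75, from 52.1, 35.0 and 50.4 CPM in wild-type DMSO to 2.01, 0.907 and 1.81 CPM with dBET6. RFC4 changed by -4.22, -5.01 and -3.50, and POLA2, the second subunit of polymerase alpha, by -4.41, -4.53 and -3.60. Treated and DMSO libraries did not overlap for any of the 45 members in these 3 comparisons, nor for 93.6% (CDK9 line), 96.8% (dBET6) and 95.4% (THAL-SNS-032) of all genes tested.

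TYMS kept the largest part of its level in the CDK9 line, at 427, 391 and 359 CPM in DMSO and 97.3, 81.7 and 110 CPM after dTAG7 (-2.01 ± 0.12). It changed by -2.94 with dBET6 and -2.17 with THAL-SNS-032 and was called higher under TMM in all 3 (0.82, 0.65 and 0.63). LIG1 changed by -2.09, -3.15 and -2.51, with 257, 237 and 279 CPM before and 59.9, 53.8 and 67.7 CPM after dTAG7 in the CDK9 line. POLD1, the catalytic subunit of polymerase delta, changed by -2.34, -2.79 and -2.06 and was also called higher under TMM in all 3 (0.51, 0.79 and 0.76). RFC3 was the third member called higher under TMM in all 3 (0.29, 0.32 and 0.47). CCNE2, which rose in Mediator lines, changed here by -2.93 in the CDK9 line, -2.68 with dBET6 and -2.53 with THAL-SNS-032, all called. Its wild-type DMSO level of 19.5, 25.0 and 18.7 CPM went to 4.23, 1.45 and 4.39 CPM with dBET6, which under TMM was called higher (0.88). MCM2 was near the middle of the list, with changes of -2.91, -3.88 and -2.91. PCNA changed by -3.08, -4.02 and -2.88, RRM2 from 145, 146 and 146 CPM to 25.1, 19.5 and 20.6 CPM in the CDK9 line, and SLBP from 71.3, 81.7 and 73.3 CPM to 5.37, 2.64 and 6.97 CPM there. CDT1 went from 240, 229 and 266 CPM to 21.9, 33.8 and 35.2 CPM in the CDK9 line.

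By role, the 4 regulators had the lowest medians (-4.20 in the CDK9 line, -4.68 with dBET6 and -3.25 with THAL-SNS-032). The 4 genes of nucleotide supply and uracil repair were at -2.69, -3.55 and -2.77, and the 10 licensing genes at -2.83, -3.80 and -2.91. Helicase activation genes were at -3.33, -3.94 and -3.11.

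**Figure D5:**
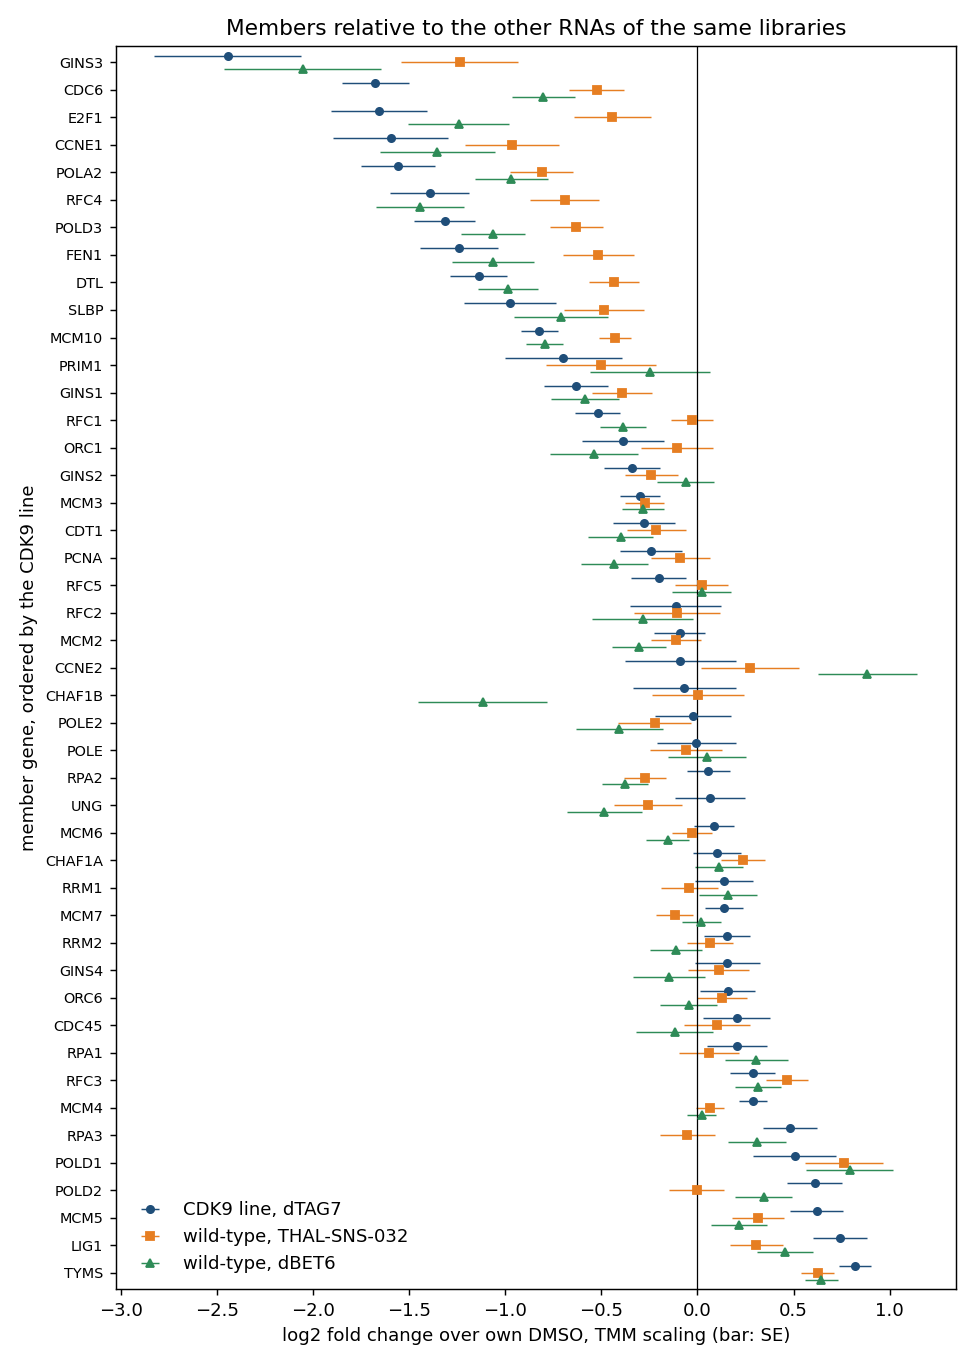
Log2 fold change under TMM scaling, with its SE, of each member in the CDK9 line after dTAG7 (circles), wild-type cells with THAL-SNS-032 (squares) and with dBET6 (triangles), ordered by the CDK9 line; 0 is the level of the bulk of RNAs in the library. GINS3 is at the top with -2.45, -1.24 and -2.06, and TYMS at the bottom with 0.82, 0.63 and 0.65.

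The 2 wild-type treatments were given at different doses, 100 nM dBET6 and 250 nM THAL-SNS-032, and a direct contrast compares only these libraries. Levels were lower with dBET6 for 41 members and higher for 0, against 53.4% and 0.392% of all genes, with a median difference of -0.93 beside -0.82. The lowest p belonged to MCM4 (-0.83 ± 0.09), at 62.4, 62.2 and 77.7 CPM against 119, 104 and 138 CPM, then to DTL (-1.30 ± 0.15) and MCM10 (-1.14 ± 0.13). Under TMM 0 members differed in edgeR in either direction, against 2.52% and 2.09% of all genes, while 8 were lower and 2 higher at an unadjusted p under 0.05, and DESeq2 called 42 lower on the spike-in scale.

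Degradation of CDK9 through the tag and through THAL-SNS-032 gave changes that differed for few members. The dTAG7 effect in the CDK9 line lay below the THAL-SNS-032 effect in wild-type cells for 3 members and above it for 0, against 2.23% and 0.416% of all genes. These were CDC6 (a difference of -1.19 ± 0.23, adjusted p 0.0015), E2F1 (-1.25 ± 0.30, adjusted p 0.0109) and DTL (-0.73 ± 0.18, adjusted p 0.0129, all edgeR). DTL lay at 182, 180 and 178 CPM in CDK9 DMSO and 11.2, 8.44 and 13.6 CPM after dTAG7, and at 189, 183 and 184 CPM in wild-type DMSO and 20.9, 18.5 and 19.0 CPM with THAL-SNS-032. Without library A of CDK9 dTAG7 1 member was called, and in a fit on the libraries of this contrast alone 0 were. Under TMM 4 were lower and 0 higher, against 3.68% and 1.85% of all genes.

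The log2 change after MED14 loss lay above that in the CDK9 line for all 45 members and below it for 0. Among all genes 88.3% lay higher and 0.128% lower. For CCNE2 the 2 changes had opposite signs (0.84 and -2.93). The lowest p belonged to DTL (a difference of 3.86 ± 0.16), CDC6 (4.28 ± 0.20) and MCM10 (3.05 ± 0.16). Under TMM 10 members were lower and 16 higher in this contrast, against 15.5% and 20.1% of all genes, and DTL (1.70) and CDC6 (2.13) stayed higher. DTL and CDC6 were among the 9 members not called after MED14 loss.

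The other genes of the pathway were taken from a list of 61 replication and S phase genes, all of which were tested. On the spike-in scale 41 were lower and 1 higher after MED14 loss, 14 and 0 after MED6 loss, 10 and 9 after MED10 loss, 0 and 2 after MED12 loss, 1 and 0 after MED26 loss, 1 and 3 after MED28 loss, 1 and 1 after MED31 loss, and 0 in either direction for MED1 loss and for wild-type dTAG7. Among all genes 63.3% were lower and 1.70% higher after MED14 loss, 18.4% and 0.775% after MED6 loss, and 19.0% and 2.71% after MED10 loss. The shares were 3.40% and 1.57% for MED12, 2.88% and 0.264% for MED26, 4.07% and 0.775% for MED28, and 2.61% and 0.495% for MED31. They were 0% for MED1 loss and for wild-type dTAG7. After MED14 loss E2F4, a repressive E2F, changed by -1.74 and ORC5 by -1.55, and E2F7, another repressor of E2F targets, rose by 0.72. E2F7 also rose after MED10 loss (0.79) and MED28 loss (0.90). CDKN1A, the inhibitor of cyclin E and CDK2, rose after MED10 loss (0.98) and in the CDK9 line (0.65). In the CDK9 line 59 of the 61 genes fell, against 95.3% of all genes lower and 0.224% higher. With dBET6 and with THAL-SNS-032 60 fell and 0 rose, against 97.1% and 96.2% of all genes lower and 0.423% and 0.256% higher. CDC25A, a phosphatase that activates CDK2, changed by -5.30 in the CDK9 line and by -5.54 with dBET6. Under TMM 12 of the 61 were lower and 21 higher after MED14 loss, against 16.6% and 13.4% of all genes. In the CDK9 line 26 were lower and 12 higher under TMM, against 27.0% and 21.1%.

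For 16 members another gene of the table overlaps the gene, among them RFC4 (EIF4A2), TYMS (ENOSF1 and TYMSOS), MCM7 (AP4M1) and FEN1 (FADS2 and TMEM258), and reads at such places cannot be assigned with certainty where strand was not used.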

How the data were processed

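Polyadenylated RNA of 66 KBM7 libraries in 22 groups of 3 was measured by QuantSeq from 350 ng RNA, with single reads of 50 bases and an equal amount of ERCC and SIRV spike-in RNA per lysate, per the labels' protocols. The authors deposited 1 table of raw counts per Ensembl gene (13331 genes and 44 spike-in rows); HTSeq 0.6.0, STAR 2.5.2b, bedtools 2.26.0 and the build hg38 appear, without roles, in the submitters' processing notes. Whether counting used strand is not given in the sources used here. GENCODE 29 named 13297 genes.

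Samples were grouped by line and treatment from the labels. Counts were fitted with edgeR 4.0.16 (R 4.3.3) with 22 group means over all libraries (44 residual degrees of freedom), spike-in totals as library sizes and edgeR's filter on low counts, which left 12515 genes. Each of the 12 treated groups was compared with DMSO of its line, with 4 further contrasts and 2 F tests, and p-values were adjusted by Benjamini-Hochberg over all genes. SE is the log2 fold change divided by the root of F. The script was tested on simulated data. Libraries held 439261 to 4337368 endogenous counts, and 62.7 (GINS3) to 1644 (MCM4) counts per member on average, which sets the precision.

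The members and lists were chosen with earlier results of these data known. Named for each comparison were the called members with the 2 largest changes in each direction under each scaling, for each further contrast or F test the 3 with the lowest p, and always MCM2, CDC6, CDT1, CCNE1, CCNE2, E2F1, PCNA, RRM2 and SLBP. Alternatives were TMM and median-of-ratios scaling, no filter, a replicate block, the libraries of a comparison only, DESeq2 1.42.0 and leaving out each library. The letters A to C do not pair samples: correlations of same-letter deviations from the group means ran from -0.229 to 0.060. Figures used matplotlib 3.10.9.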

Additional observations from a re-analysis of the deposited data

Results flagged for a closer look

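These results are listed because an effect differed between lines or treatments by a test of the difference itself (edgeR). The effect of MED14 loss differed from that of MED12 loss downward for 39 members, led by GINS1 (-1.45), RFC3 (-1.06) and MCM3 (-1.22), and 32 were called without library B of MED12 DMSO. The effect of MED14 loss lay above that of dTAG7 in the CDK9 line for 45 members, led by DTL (3.86), CDC6 (4.28) and MCM10 (3.05). Tagged CDK9 degradation differed from THAL-SNS-032 downward for 3 members, CDC6 (-1.19), E2F1 (-1.25) and DTL (-0.73), of which E2F1 and DTL were lost without library A of CDK9 dTAG7. The dTAG7 effect differed among the 8 Mediator lines for 25 members, against 46.2% of all genes. For the contrasts named before it, in order and in the same direction, the shares of all genes were 57.4%, 88.3% and 2.23%.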

How the results depend on the processing

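Counts are members called lower and higher. Under TMM they were 15 and 8 in the CDK9 line, 0 and 2 for MED6, 2 and 7 for MED10, 2 and 4 for MED12, 7 and 10 for MED14, 1 and 1 for MED26, 0 and 5 for MED28, 1 and 1 for MED31, 18 and 5 for dBET6, 12 and 3 for THAL-SNS-032, 0 lower for dBET6 against THAL-SNS-032, 3 and 2 for MED14 minus MED12, 10 and 16 for MED14 minus CDK9 and 4 lower for CDK9 minus THAL-SNS-032, with 13 for DMSO lines and 6 among Mediator lines. Under median-of-ratios scaling they were 13 and 9 (CDK9), 0 and 2 (MED6), 1 and 8 (MED10), 5 higher (MED12), 7 and 11 (MED14), 1 and 1 (MED26), 0 and 5 (MED28), 1 lower (MED31), 12 and 9 (dBET6), 8 and 6 (THAL-SNS-032), 0 lower (dBET6 against THAL-SNS-032), 3 and 3 (MED14 minus MED12), 11 and 16 (MED14 minus CDK9) and 1 higher (CDK9 minus THAL-SNS-032), with 12 and 7 in the F tests.

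Of the members called on the spike-in scale, 19 of 36 had the opposite sign under TMM after MED14 loss (1 of them called there), 19 of 45 in the CDK9 line (8 called), 15 with dBET6 (5 called), 15 with THAL-SNS-032 (3 called) and 1 of 9 after MED6 loss. Among the genes named by rule in each comparison, those reversed under TMM were, after MED14 loss, CCNE1 0.19, CDC6 0.45, CDT1 0.10, E2F1 0.14, MCM2 0.12 and PCNA 0.21. They were LIG1 0.74, RRM2 0.15 and TYMS 0.82 in the CDK9 line, CCNE2 0.27, POLD1 0.76, RRM2 0.063 and TYMS 0.63 with THAL-SNS-032, and CCNE2 0.88 and POLD1 0.79 with dBET6. Among the same named genes under median-of-ratios scaling they were CCNE1 0.22, CDC6 0.49, CDT1 0.14, E2F1 0.17, MCM2 0.16 and PCNA 0.25 (MED14), CCNE2 0.013, LIG1 0.85, MCM2 0.020, RRM2 0.26 and TYMS 0.93 (CDK9), CCNE2 0.34, POLD1 0.83, RRM2 0.13 and TYMS 0.69 (THAL-SNS-032), CCNE2 1.03, POLD1 0.94 and RRM2 0.030 (dBET6), and MCM4 0.032 (dBET6 against THAL-SNS-032). By construction these scalings set the bulk of genes equal.

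DESeq2 moved counts by over 1.5 times for MED10 (2 higher) and MED28 (2 higher), and by less for MED6 (10 lower), MED14 (36 lower), MED26 (3 lower), dBET6 against THAL-SNS-032 (42 lower), MED14 minus MED12 (40 lower), the 8 Mediator lines (28) and DMSO lines (24). With the libraries of a comparison only, the counts that moved by over 1.5 times were these: 3 were higher for MED10, 0 higher and 0 lower for MED12, 3 higher for MED28, 4 lower for MED26, 0 lower for MED6 and 0 lower for CDK9 minus THAL-SNS-032; the cause was not tested. The replicate block, which pairs samples by a letter only, gave 2 higher for MED10 and 1 lower for MED31. Leaving out 1 library gave 3 to 13 lower for MED6, 4 to 9 lower and 1 to 2 higher for MED10, 1 to 2 lower and 0 to 4 higher for MED12, 0 to 3 lower and 0 to 1 higher for MED26, 0 to 1 lower and 0 to 1 higher for MED28, 0 to 2 lower and 0 to 1 higher for MED31, and 1 to 5 lower for CDK9 minus THAL-SNS-032. Of the named values, 904 kept direction and side of the threshold, 36 lost the call and 8 gained it when 1 library was left out. Low counts limit GINS3 most, with 9 and 8 counts over the treated CDK9 and dBET6 libraries.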
